A study of Saccharomyces cerevisiae with 17 samples.

Results

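A set of 115 named yeast genes stood higher in every library without RRP6 than in the other libraries deposited with them. The set was taken from 6644 genes found in both deposited tables, of which 6313 had a value in all 7 columns of the authors' workbook. A gene was taken when the lowest of its 4 rrp6 columns lay at least 0.5 above the highest of the 3 other workbook columns on the log2 FPKM scale, and at 2 or more, which is an FPKM of 4. FPKM counts the sequenced fragments of a gene per unit of its length and of sequencing depth. Of 224 genes that met both limits, 135 had a gene name. Of those, 129 had no entry for the motif that the authors marked. Removal of any ribosomal protein, sporulation or PAU gene, and of any gene on a list of 15 names, left 115. The genes were thus chosen by their values in the workbook, and the difference between rrp6 and those 3 columns is described here and not tested. The same limits turned around, with rrp6 lower, were met by 12 genes, 5 of which also met the conditions on names. Without wild type with the Chd1-Ume6 fusion among the compared columns the count was 193 genes, and it lay between 122 and 193 with any 1 of the 7 workbook columns left out.

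Rrp6 is a ribonuclease of the nuclear exosome, the complex that trims and destroys RNA in the nucleus. Without it, short transcripts from divergent promoters and from intergenic DNA build up, as do RNAs whose transcription is ended early by Nrd1, Nab3 and Sen1. The TRAMP complex adds short poly(A) tails that mark such RNAs for the exosome, and some genes give a truncated transcript of this kind from their own promoter. A count of fragments over a gene does not separate a full-length mRNA from a shorter or extended RNA that covers it.

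The strains were Saccharomyces cerevisiae of the W303 background, grown to an OD600 of 0.4 to 0.6, and total RNA depleted of rRNA was sequenced as stranded libraries. The workbook held an rrp6 deletion and an rrp6 deletion with Chd1-Ume6, with 2 numbered isolates each, and 1 column each for a ume6 deletion, a ume6 deletion with Chd1-Ume6 and wild type with Chd1-Ume6. Chd1-Ume6 joins the nucleosome-sliding enzyme Chd1 to Ume6, a DNA-binding repressor, so the 3 columns that chose the genes each lacked Ume6, carried the fusion, or both, and none was plain wild type. The second table, called the abundance table here, held 1 column each for wild type, the rpd3 and isw2 deletions, a deletion of both in a prototrophic W303 strain (isw2 rpd3), ume6, ume6 with Chd1-Ume6, ume6 with a catalytically inactive Chd1-Ume6, and wild type with Chd1-Ume6. Isw2 slides nucleosomes and Rpd3 is a histone deacetylase, and both are recruited by Ume6. The header of the abundance table names no unit, and its log2 values were read as FPKM because they sum to about the same as the workbook's. The wild type column has the digits of an average made by the authors, so its value is given as their mean with no error. The labels describe 17 libraries in 10 groups for the 15 columns, and isolates are numbered with no word on whether they were grown apart. A p-value here therefore reflects only how far columns of a group differ, which may be technical.

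The RRP6 transcript itself was at 1.68, 0.125 and 0.252 FPKM in 3 of the 4 rrp6 columns and had no value in the remaining one, against 77.1 in wild type. The 2 rrp6 columns correlated at r = 0.963 over 6452 genes, and the 2 rrp6 columns with the fusion at 0.957 over 6479 genes, as log2 FPKM. These are correlations across genes, which are not independent replicates. Of the 115 genes, 1 differed by 2-fold or more between the rrp6 columns and 4 between the fusion columns. Over all genes these were 565 of 6452 and 520 of 6479. The rule set a floor on these same 4 columns, so the low counts in the set were partly fixed by it. Depth is unknown because the tables hold no counts, and FPKM summed over genes lay between 889031 and 1132500 in the 15 columns.

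The genes that give the set its name are ATG14, OAR1 and HAP5, and the sequences upstream of their coding regions are shown because the early-termination factors bind short motifs in nascent RNA. Each run covers 250 to 51 bases before the start codon on the gene's own strand, read from the S288C reference R64 in RefSeq. The deposited tables name no build and no coordinates, and the strains are W303. Capitals mark GTAA and GTAG, the motifs of Nrd1, and TCTT and CTTG, the motifs of Nab3, each searched on the gene's strand. The windows are chrII:494166-494365 on the minus strand for ATG14, chrXI:336208-336407 on the minus strand for OAR1 and chrXV:1009911-1010110 on the plus strand for HAP5.
ATG14: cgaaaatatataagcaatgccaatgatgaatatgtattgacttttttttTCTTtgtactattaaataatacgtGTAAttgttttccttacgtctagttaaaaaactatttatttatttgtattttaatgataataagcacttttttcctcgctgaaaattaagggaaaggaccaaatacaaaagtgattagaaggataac
OAR1: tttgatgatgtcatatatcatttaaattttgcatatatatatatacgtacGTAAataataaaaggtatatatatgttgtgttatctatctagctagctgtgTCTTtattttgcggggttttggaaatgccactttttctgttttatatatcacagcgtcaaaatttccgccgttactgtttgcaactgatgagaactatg
HAP5: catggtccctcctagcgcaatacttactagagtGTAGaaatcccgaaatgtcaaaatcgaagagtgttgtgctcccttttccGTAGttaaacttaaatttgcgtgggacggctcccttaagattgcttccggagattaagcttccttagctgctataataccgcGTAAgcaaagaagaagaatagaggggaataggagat
The ATG14 window held 1 GTAA and 1 TCTT, the OAR1 window likewise 1 GTAA and 1 TCTT, and the HAP5 window 1 GTAA and 2 GTAG. These are matches of letters and not sites.

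Such short motifs are common. On the gene's strand the shares of GTAA and TCTT lay near those of all genes, and those of GTAG, CTTG and TCTTG lay above them. These differences were not tested. In windows of 300 bases, from 250 before to 50 after the start codon, the gene's strand held GTAA in 86 of the 112 genes found in the reference (76.8%) and in 76.6% of 5815 genes. GTAG was held by 70 of 112 (62.5%, against 54.3% of all genes) and CTTG by 81 (72.3%, against 62.8%). TCTT was held by 96 (85.7%, against 85.9%), and TCTTG, which contains both Nab3 motifs, by 44 (39.3%, against 31.4%). On either strand, the TATA element TATAAA was held by 52 windows (46.4%, against 45.1%) and the Ume6 core GCCGCC by 4 (3.57%, against 4.97%). On either strand, GTAA was in 93.8% of the windows against 94.9% of all genes, GTAG in 79.5% against 79.9%, TCTT in 99.1% against 99.5%, CTTG in 92.9% against 90.5% and TCTTG in 65.2% against 60.1%.

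ATG14 encodes the subunit that directs the Vps34 lipid kinase complex to autophagy. Without Rrp6, ATG14 stood at 29.1 and 18.8 FPKM, and at 13.0 and 16.3 where the strain also carried Chd1-Ume6. In the other workbook columns it was at 4.14 in ume6, 3.82 in ume6 with the fusion and 4.69 in wild type with the fusion. All 4 rrp6 columns were above all 3 of these, by 1.48 log2 units or more. In the abundance table, wild type was at 3.53, isw2 at 4.35, ume6 at 4.47 and the other strains with a fusion between 3.82 and 5.24, while rpd3 reached 11.2 and isw2 rpd3 11.7. The groups did not overlap, although the lowest rrp6 column was only 0.15 log2 units above isw2 rpd3. Its mean over the 4 rrp6 columns was 5.23-fold the wild type mean, the largest such ratio of the 115.

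OAR1 encodes the reductase of mitochondrial fatty acid synthesis, the pathway that makes the precursor of lipoic acid. OAR1 was at 60.8 and 52.5 FPKM in rrp6 and at 46.5 and 43.7 in rrp6 with the fusion. The other workbook columns gave 10.3 in ume6, 7.10 in ume6 with the fusion and 7.06 in wild type with the fusion. Every rrp6 column was again above all of them. In the abundance table OAR1 was at 12.5 in wild type, 14.1 in ume6, 15.6 in isw2, 18.8 in rpd3 and 21.4 in isw2 rpd3, and between 8.31 and 9.34 in the 3 strains with a fusion. The lowest rrp6 value was 1.03 log2 units above the highest of these 8.

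HAP5 encodes a subunit of the CCAAT-binding HAP complex, which activates genes of respiration. HAP5 was at 36.4 and 38.0 FPKM in rrp6 and at 28.9 and 31.5 in rrp6 with the fusion. In the rest of the workbook it was at 20.2 in ume6, 15.5 in ume6 with the fusion and 9.96 in wild type with the fusion. In the abundance table it was lowest in isw2, at 9.15, and wild type, at 10.01, and highest in ume6, at 22.8, and ume6 with the fusion, at 22.6. All 4 rrp6 columns stood above all 11 others, with a gap of 0.52 log2 units in the workbook, close to the limit of the rule.

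**Figure D1:**
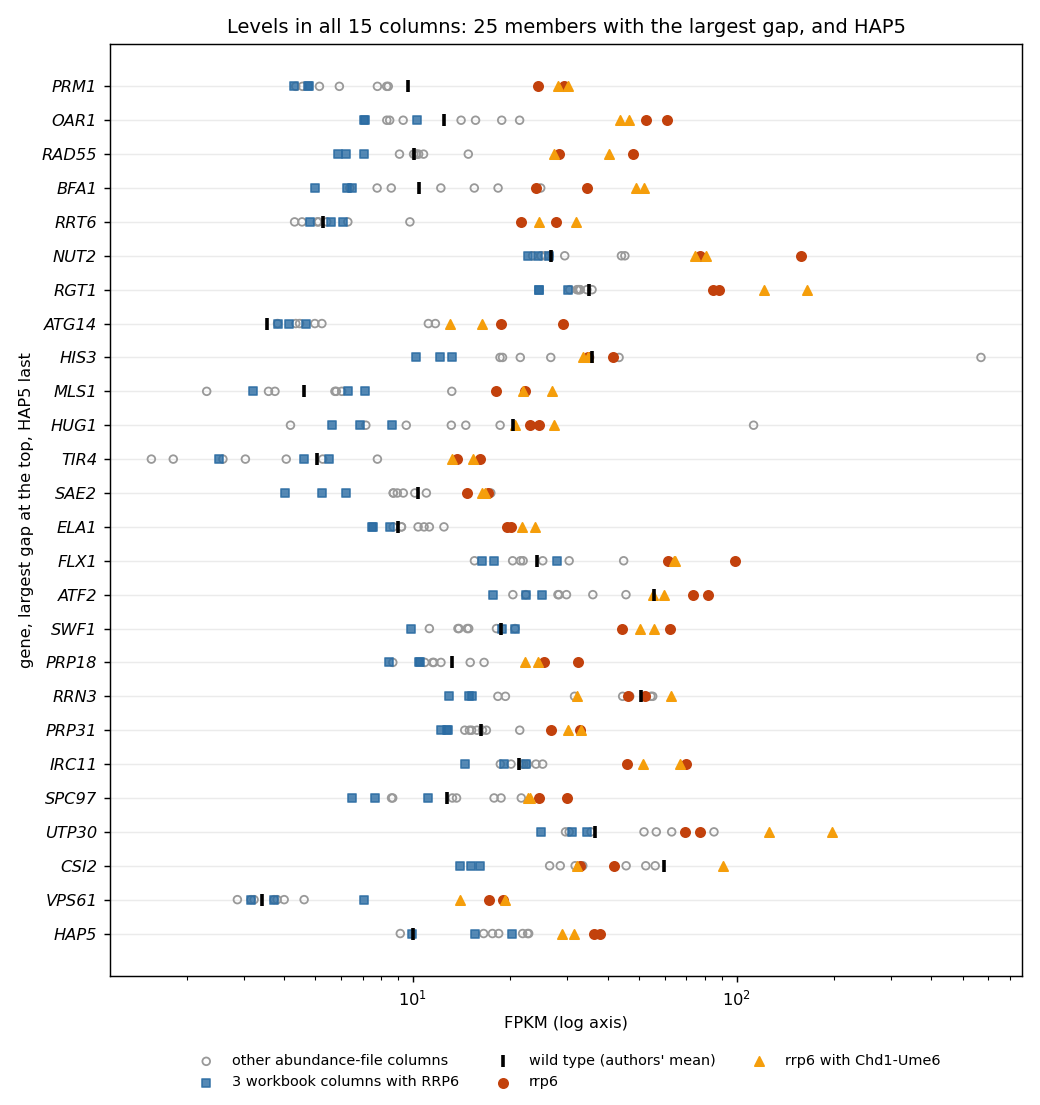
FPKM on a log axis in all 15 columns for the 25 genes with the largest gap between the lowest rrp6 column and the highest of the 3 other workbook columns, and for HAP5. Circles and triangles in red and orange are single rrp6 columns, blue squares the 3 workbook columns that chose the genes, open circles the abundance table and the black bar the authors' wild type mean; for PRM1 the rrp6 columns lie between 24.3 and 30.1, to the right of all others, while for HIS3 wild type lies among them.

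The gap that chose the genes ran from 0.504 to 2.35 log2 units, with a median of 0.749, and was 1 or more in 22 genes. Just inside the limit of 0.5 were USE1 at 0.504436, ICL1 at 0.504471 and JLP2 at 0.504772. Just outside it were SWC7 at 0.497949, SEC59 at 0.497484 and STE23 at 0.488943. The largest gap belonged to PRM1, a membrane protein of mating cell fusion, with 29.4, 24.3, 28.0 and 30.1 FPKM without Rrp6 and between 4.30 and 4.77 in the 3 other columns. OAR1 and RAD55 followed, with gaps of 2.09 and 1.94.

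The expression values of the abundance table had no part in choosing the genes, although a gene had to be listed in both tables and names and motif entries were used. Against those values the set divided almost evenly. The tables were normalized separately, so levels set across them carry that difference. The lowest rrp6 column was above all 8 columns of the abundance table in 56 of the 115 genes (48.7%), against 5.66% of 6326 genes. It was above the wild type mean in 90 genes (78.3%), against 27.7% of 6411 genes, and at least 2-fold above it in 31 genes (27.0%), against 3.62%. In the other 25 genes the wild type mean lay inside the range of the rrp6 columns, and in 0 it lay above that range. These shares use the same 4 rrp6 columns as the rule, so they were partly fixed by it. Shifted by -0.137, the median log2 difference between the tables in the 3 groups they share, the counts were 65 above all 8 columns and 100 above wild type. The shares of all genes after this shift are not given, so the rise in the counts is not read as a result about the set.

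**Figure D2:**
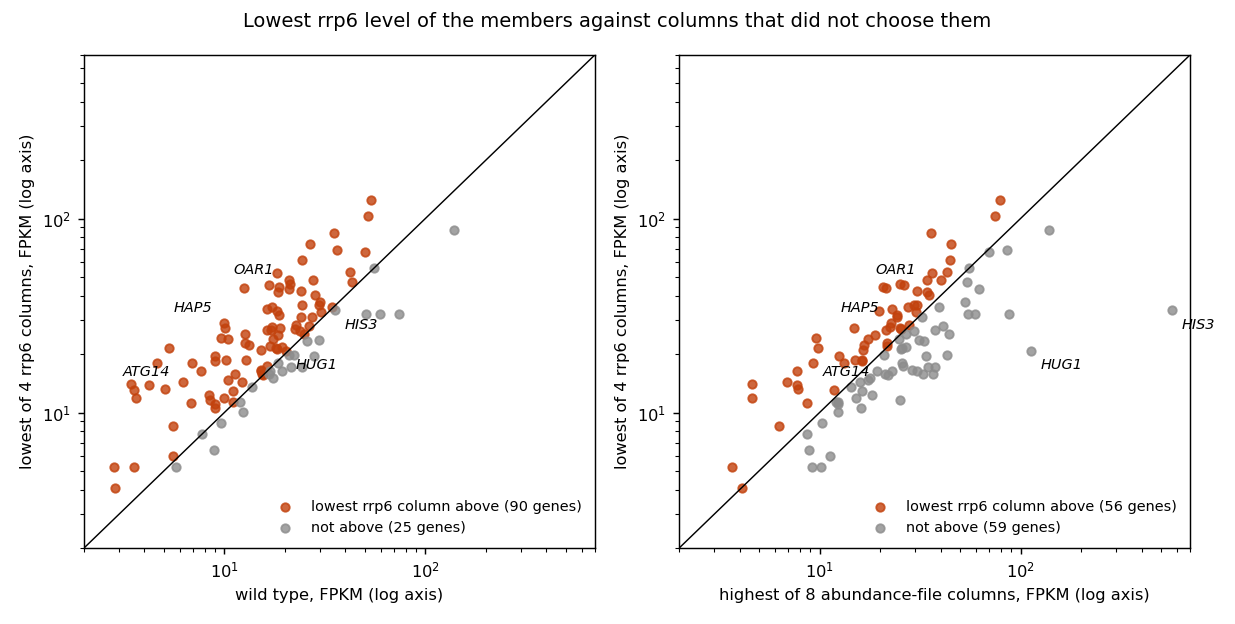
The lowest of the 4 rrp6 columns for each of the 115 genes against the wild type mean (left) and against the highest of the 8 abundance columns (right), both in FPKM on log axes with the line of equality. In the left panel 90 genes lie above the line, and in the right panel 56, with HIS3 and HUG1 farthest below it.

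The size of the difference depended on what it was measured against. The median over the set of the mean rrp6 level minus the mean of the 3 workbook columns was 1.28 log2 units, or 2.43-fold, against 0.09 over all genes. Measured against wild type it was 0.67 log2 units, or 1.59-fold, against 0.04 over all genes. The 4 rrp6 columns had medians of 0.72, 0.56, 0.71 and 0.65 above wild type, and the 3 workbook columns that chose the genes had medians of -0.56, -0.58 and -0.59. So the set stood about as far below wild type in those 3 columns as it stood above it in rrp6. Over all genes the medians in those 3 columns were -0.09, 0.02 and -0.13.

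**Figure D3:**
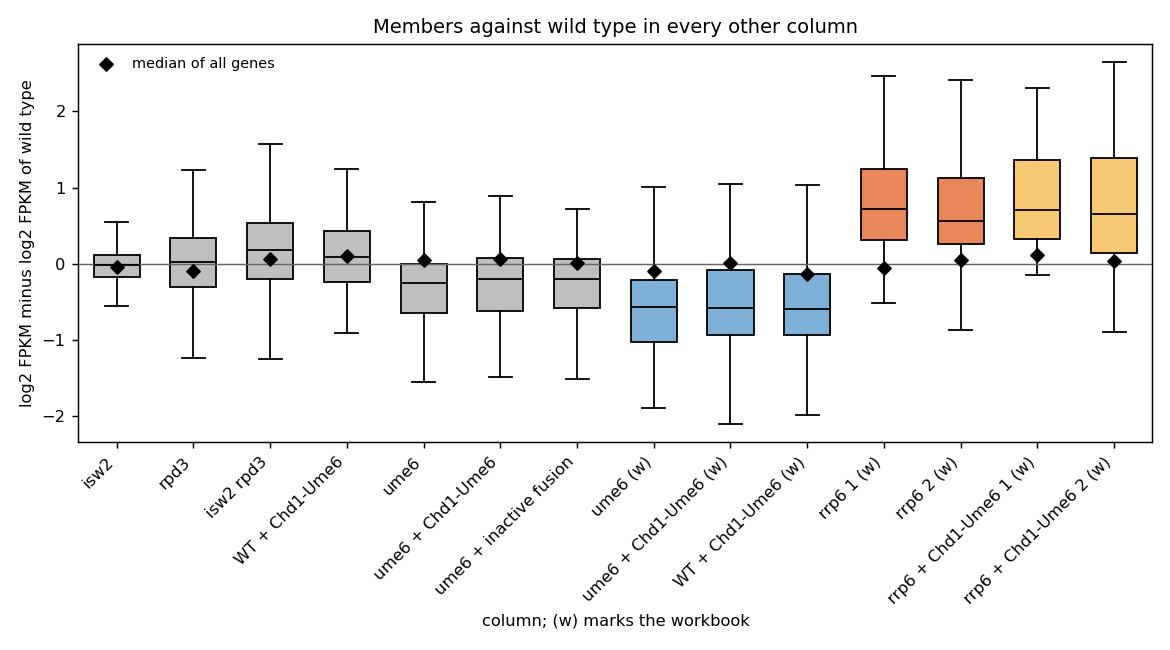
Difference in log2 FPKM from the wild type mean for the 115 genes in the 14 other columns. Boxes give the median and quartiles, whiskers reach the last value within 1.5 interquartile ranges, diamonds give the median of all genes; the 4 rrp6 boxes have medians from 0.56 to 0.72, and the 3 blue workbook boxes from -0.59 to -0.56.

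The groups that both tables hold were lower in the workbook. The genes were chosen for low values in these 3 workbook columns, so a larger drop than over all genes is in part fixed by the rule. Wild type with Chd1-Ume6 had a median 0.63 log2 units lower in the workbook than in the abundance table over the 115 genes, at -0.63, against -0.17 over all genes. It was lower in the workbook in 102 of the 115 genes (62.1% of all genes were lower) and at least 2-fold lower in 28. In either direction, 28 of the 115 and 847 of 6357 genes were at least 2-fold apart. The ume6 deletion was lower in 91 genes, against 67.3% of all genes, with a median of -0.26 (all genes -0.18). For ume6 with the fusion it was 89 genes, against 58.3%, with a median of -0.29 (all genes -0.09). The part of this difference in the rrp6 result was not tested, since wild type is in the abundance table and rrp6 in the workbook.

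The genes of the set were mostly of modest abundance. Their median wild type level was 17.0 FPKM, against 29.0 over all genes, and 97 of the 115 lay below the median of all genes. The range was from 2.82 in MAL32 to 139 in TOS6. Within the 4 rrp6 columns the highest and lowest value differed by a median of 0.49 log2 units, from 0.09 in JLP2 to 1.89 in PCL1, and by 1 or more in 16 genes.

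By role, 63 of the genes were placed in 13 groups after their values had been seen, so the groups only order the description. The 2 genes of mitochondrial fatty acid synthesis, OAR1 and HTD2, both stood above all 8 abundance columns. HTD2, the dehydratase of that pathway, was at 43.7 and 43.0 FPKM in rrp6, 36.0 and 42.9 with the fusion, and 24.2 in wild type, with a highest abundance column of 30.6. In autophagy and vesicle transport, ATG14, PEP7, SFT1 and USE1 stood above all 8 columns and VPS33 above wild type only. SFT1, a Golgi SNARE, ran from 103 to 179 in rrp6 against 51.6 in wild type. USE1, a SNARE of transport back to the endoplasmic reticulum, ran from 42.4 to 57.7 against 24.1.

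Among 5 sequence-specific transcription factors, HAP5 and RGT1 stood above all 8 columns. RGT1, a repressor of glucose transporter genes, was at 84.4 and 88.1 FPKM in rrp6 and at 165 and 121 with the fusion. Its other 11 columns lay between 24.5 and 35.8, a narrow band with no overlap with rrp6. STB5 was above wild type, while for YHP1 and YOX1, repressors of cell cycle genes, the wild type mean lay inside the rrp6 range. In general transcription, NUT2 (a Mediator subunit), TAF11 (a TFIID subunit) and ELA1 (elongin A) stood above all 8 columns. NUT2 was at 77.3, 158, 80.3 and 74.2 in the rrp6 columns, against 26.7 in wild type and at most 45.2 elsewhere in the abundance table. TFA1 was above wild type, and RRN3, a factor for RNA polymerase I, had its wild type mean of 50.7 within the rrp6 range of 32.1 to 62.8.

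Genes that act on RNA made up another part. Of 6 genes of 3' end formation and poly(A) tails, MPE1, SSU72, PTI1 and NAB2 stood above all 8 columns and PCF11 above wild type. NAB2, which binds poly(A) tails, ran from 125 to 159 FPKM in rrp6, against 53.9 in wild type and 85.9 in the highest of the other 11 columns, ume6 of the workbook. TRF5, a poly(A) polymerase of a TRAMP complex, ran from 17.1 to 33.99 with wild type inside that range at 21.4. Of 5 splicing genes, PRP18, PRP31, CWC23 and MER1 stood above all 8 columns and SYF1 above wild type. CWC23 was at 19.7 and 18.8 in rrp6, 14.3 and 18.3 with the fusion, and at most 6.88 in the abundance table.

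Genes of DNA repair, replication and the cell cycle had the lowest medians against wild type. Of 12 genes of repair and replication, 10 stood above wild type and only RAD55, a gene of recombinational repair, above all 8 columns. RAD55 was at 47.8, 28.2, 27.2 and 40.4 FPKM without Rrp6, against 10.1 in wild type and at most 14.8 in the abundance table. SAE2, which starts the processing of broken ends, ran from 14.7 to 17.1, against 10.4 in wild type and 17.4 in isw2 rpd3. HUG1, a DNA damage-induced inhibitor of ribonucleotide reductase, ran from 20.7 to 27.3, against 20.3 in wild type and 113 in isw2. The median of these 12 genes was 0.23 log2 units above wild type in rrp6 and 1.23 above the 3 workbook columns. Those 3 columns had medians of -0.79, -0.90 and -0.72 against wild type. In the abundance table the medians were -0.26 in ume6, -0.23 in ume6 with the fusion and 0.12 in wild type with the fusion. There 11, 12 and 4 of the 12 genes were below wild type.

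Of 7 genes of cell cycle control, 0 stood above all 8 columns and 5 above wild type. BFA1, which restrains exit from mitosis, was at 34.5, 24.04, 51.8 and 48.8 FPKM in rrp6 against 10.5 in wild type and 24.8 in isw2 rpd3. PCL1, a G1 cyclin, ran from 32.2 to 119 across the rrp6 columns, around its wild type mean of 74.3. In the 3 workbook columns PCL1 was at 11.7, 12.8 and 21.9. All 7 were below wild type in each of those 3 columns, with medians of -1.004, -0.86 and -0.75 log2 units. In the abundance table the medians were -0.62 in ume6, -0.46 in ume6 with the fusion and 0.11 in wild type with the fusion. There 7, 6 and 2 of the 7 genes were below wild type. In a bulk culture, fewer cells at a stage of the cell cycle and less RNA per cell cannot be told apart.

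In the spindle, tubulin and kinetochore group, 7 of 7 genes stood above wild type and SPC97, NKP1, CIN1, CIN2 and CIN4 above all 8 columns. CIN1, CIN2 and CIN4 act together in the folding of tubulin. They were listed together after their values were seen, so their joint place in the set was fixed by the list. Other genes of tubulin folding were not listed. CIN1 ran from 23.9 to 27.3 FPKM in rrp6 against 17.5 in wild type, CIN2 from 31.8 to 69.1 against 18.7, and CIN4 from 34.9 to 39.5 against 17.3. Of the glyoxylate cycle, which lets cells build sugar from acetate, 2 enzymes were listed, MLS1 and ICL1. This pair was also picked after its values were seen, and the other enzymes of the cycle were not listed. MLS1, malate synthase, was at 22.1, 18.1, 21.9 and 26.9 against 4.62 in wild type, and ICL1, isocitrate lyase, at 47.4, 35.9, 49.3 and 51.6 against 29.4. Both were above all 8 columns.

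The smaller groups were as follows. Of the mitochondrial carriers, FLX1 (FAD) and DIC1 (dicarboxylate) stood above all 8 columns and TPC1 (thiamine pyrophosphate) above wild type. FLX1 ran from 61.5 to 98.8 FPKM against 24.2 in wild type. The nuclear envelope genes were BRR6, above all 8 columns, and BRL1, above wild type. HIS3 and TRP1 are biosynthetic genes that are widely used as auxotrophic markers, and their alleles in these strains were not tested. HIS3 was at 41.6, 34.8, 34.9 and 33.6 in rrp6, 35.7 in wild type, 569 in the prototrophic isw2 rpd3 strain and 10.2 to 13.2 in the 3 workbook columns. TRP1 ran from 21.6 to 38.2 against 19.4 in wild type.

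**Figure D4:**
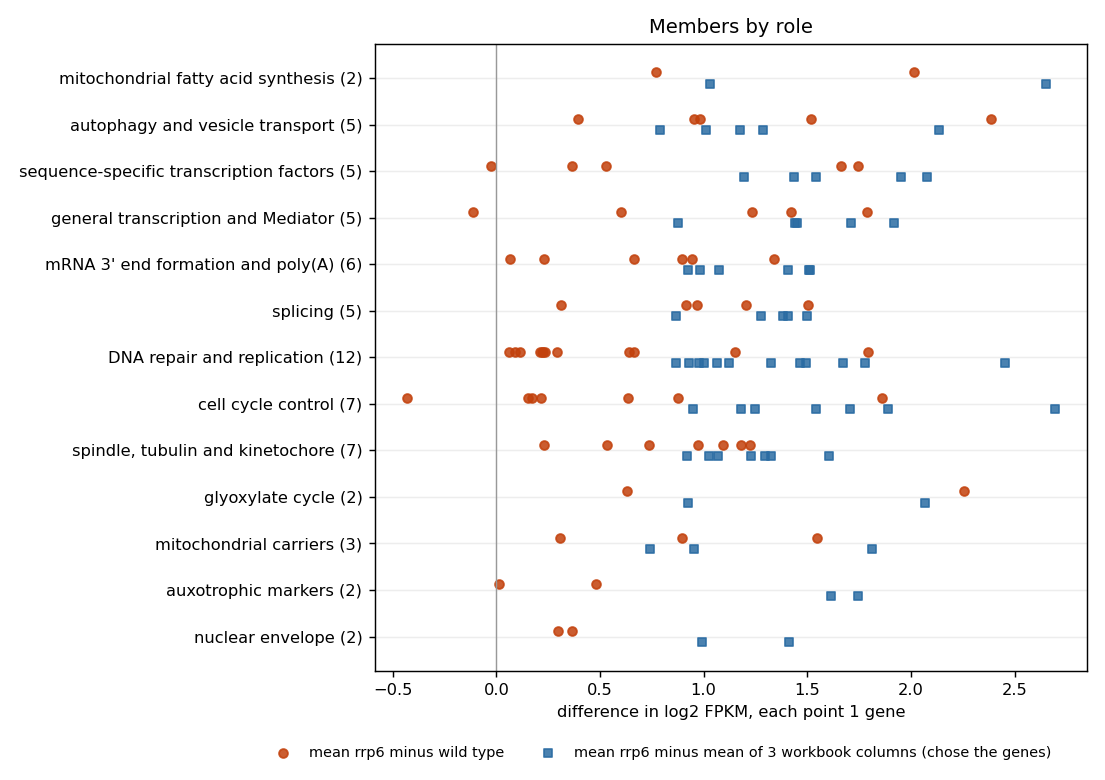
Each point is 1 of 63 genes placed in a role, with the number of genes in brackets. Red points give the mean of the 4 rrp6 columns minus the wild type mean and blue squares the same mean minus the mean of the 3 workbook columns, both in log2 FPKM; the red points of the repair and cell cycle genes have the lowest medians, 0.23 and 0.22.

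The remaining 52 genes were given no role, and 26 of them stood above all 8 abundance columns. In order of that margin these were VPS61, ARP10, PRM1, RRT6, SWF1, REG2, ECM8, IRC11, YIM2, TAX4, TIR4, RKM5, JLP2, MAL32, SET4, RGM1, TDA5, BIG1, CDD1, HNT2, YPT35, SSY5, ARG82, CNA1, ECM32 and DTR1. VPS61 had the largest margin of all 115 genes, 1.60 log2 units, with 14.0 to 19.2 FPKM in rrp6 against 2.87 to 4.62 in the abundance table. ARP10, a dynactin subunit, followed at 1.37, and SWF1, a palmitoyltransferase, and REG2, a regulator of the Glc7 phosphatase, each had 1.10. RRT6 ran from 21.6 to 31.9 FPKM against 5.30 in wild type, and TIR4, a cell wall mannoprotein, from 13.3 to 16.1 against 5.06.

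The other 26 were ATF2, PMD1, ZPS1, AYT1, MDJ2, ARV1, TEN1, JHD2, MUM3, YSP1, GAS2, UTP30, FCY22, RTC1, HST3, MTG2, FRE2, WTM2, CSH1, ALG13, DGR1, TOS6, RRT5, CSI2, IRC8 and ECM12, of which 10 stood above wild type. UTP30, a ribosome biogenesis factor, was at 77.1, 69.1, 126 and 197 FPKM in rrp6 against 36.5 in wild type and 85.2 in isw2 rpd3. ATF2, an alcohol acetyltransferase, was at 73.5, 81.3, 59.8 and 55.3, with wild type at 55.7. CSI2 was at 41.9, 32.9, 91.1 and 32.1, with 3 of the 4 below its wild type mean of 59.7. Over the 59 genes not above all 8 columns, the highest abundance column was isw2 rpd3 in 27, rpd3 in 10, wild type with the fusion in 9 and wild type in 7.

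Some values share reads with another gene. VPS61, YIM2 and IRC11 are absent from the R64 annotation used here and are classed as dubious reading frames that overlap RGP1, YIM1 and YOR012W, and whether the authors' counting used strand is not given in the sources used here. YOR012W was at 29.1 to 50.3 FPKM in rrp6 and 14.4 in wild type, and IRC11 was at 46.0 to 69.9 and 21.2. The part of the shared reads in the value of IRC11 was not tested. RGP1 was at 16.7 to 22.5 in rrp6 and 16.6 in wild type, and YIM1 at 38.7 to 52.8 and 36.0. ECM12 overlaps YHR022C on the opposite strand, and MAL32 has a near-identical copy in MAL12, so their values are uncertain.

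The position of the genes in the genome was compared with that of all genes over the 112 found in R64. The downstream neighbour lay on the same strand in 76 of 112 (67.9%), against 47.8% of 5815 genes and 46.3% of the 4520 that met the conditions on names. The upstream neighbour was on the same strand in 56 (50%), against 49.0% of all genes. A snoRNA gene was the upstream neighbour, on the same strand, of 5 genes (4.46%), against 0.447% of all genes. snoRNAs are among the RNAs whose 3' ends Rrp6 trims. The 5 were FLX1, 148 bases beyond SNR68, USE1, 286 beyond SNR82, SFT1, 397 beyond SNR87, PMD1, 679 beyond SNR52, and RGT1, 728 beyond SNR69.

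The neighbours on the upstream side did not share the pattern more often than elsewhere. Of 49 upstream neighbours on the same strand with values, 10 (20.4%) had a mean in rrp6 over 0.5 log2 units above the 3 workbook columns, against 20.3% for the upstream neighbours of all genes. Of 72 downstream neighbours on the same strand, 16 (22.2%) did, against 15.6%, and of 31 on the opposite strand 9 (29.0%), against 13.3%. Within the set, 2 pairs of genes were neighbours, FAR1 with SSY5 and TRF5 with TOS6. Unnamed genes, motif genes and the other genes left out by the rule could not form such pairs. The genes had a median length of 1099.5 bases, against 1221, and a median GC content of 39.8%, against 39.6%.

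The effect of Chd1-Ume6 within the rrp6 background was tested, since the rule pooled the columns with and without the fusion. The lowest of these same 4 columns chose the genes, so the shares and ranks below are conditioned on that choice, and nothing is read from their distance to all genes. With limma and Benjamini-Hochberg adjustment over 6241 genes, 0 of the 115 passed an adjusted p of 0.05, against 44 of all genes (0.705%). At an unadjusted p under 0.05 there were 9 (7.83%), against 14.6% of all genes. The median change was 0.04 log2 units, against 0.03. The difference between the fusion's effect in rrp6 and in wild type likewise passed in 0 of the 115 and in 2 of all genes, with 10 of the 115 at an unadjusted p under 0.05 (8.7%, against 9.95%).

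By rank within rrp6, the columns with and without the fusion were interleaved in 71 of the 115 genes. Both fusion columns were below both rrp6 columns in 25 genes (21.7%), against 14.7% of all genes, and above both in 19 (16.5%), against 25.5%. ATG14, OAR1 and HAP5 were all among those below, with fitted changes of -0.65 (SE 0.26), -0.32 (SE 0.19) and -0.29 (SE 0.21) log2 units and limma adjusted p of 0.298, 0.492 and 0.578. UTP30, HSL1, BFA1 and RGT1 were among those above, and UTP30 had a fitted change of 1.10 (SE 0.27) with a limma adjusted p of 0.116.

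The rpd3 and isw2 rpd3 strains gave calls in 5 of the genes, at shares near those of all genes. The isw2 rpd3 strain is labelled prototrophic, so in its tests loss of both genes and strain background cannot be told apart. Each of the rpd3, isw2 and isw2 rpd3 strains had a single column, as did wild type, so their tests borrow the spread from groups with 2 columns. In rpd3, 2 of the 115 passed (1.74%), against 0.881% of all genes, with 12 at an unadjusted p under 0.05 (10.4%, against 11.6%). HUG1 fell to 4.19 FPKM from 20.3 in wild type, a change of -2.04 (SE 0.31) log2 units with a limma adjusted p of 0.0276. ALG13, a subunit of the enzyme that adds the second sugar of N-glycans, rose to 62.1 from 20.9, by 1.53 (SE 0.27), with a limma adjusted p of 0.0488. The limma adjusted p of HUG1 ran from 0.0151 to 0.18 over 18 alternatives, and the call was lost without ume6 of either table (0.0754 and 0.0746) or ume6 with the fusion of either table (0.0641 and 0.0645). For ALG13 it ran from 0.0305 to 0.116, and the call was lost without any 1 of these 4 columns, of wild type with the fusion in either table, or of the rrp6 isolates.

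In isw2 rpd3, 4 of the 115 passed (3.48%), against 3.8% of all genes, with 26 at an unadjusted p under 0.05 (22.6%, against 19.6%). HIS3 rose by 3.96 (SE 0.28) log2 units, with a limma adjusted p of 0.000616, in a strain whose label gives prototrophy. RRM3, a DNA helicase, rose to 43.9 FPKM from 12.7, by 1.71 (SE 0.30), with a limma adjusted p of 0.0228. ALG13 rose to 57.9, by 1.42 (SE 0.27), with a limma adjusted p of 0.0266. AYT1, an acetyltransferase, fell to 2.40 from 12.02, a change of -1.93 (SE 0.31) with a limma adjusted p of 0.0166. Over 18 alternatives the limma adjusted p of AYT1 ran from 0.0127 to 0.0659, and the call was lost under quantile normalization. RRM3 lost its call without ume6 of either table (0.0518 and 0.0519, within a range of 0.0218 to 0.0748 over 18 alternatives). ALG13 lost its call without ume6 or ume6 with the fusion of either table or wild type with the fusion of the workbook, within a range of 0.0238 to 0.0698.

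ATG14 stood at 11.2 FPKM in rpd3 and 11.7 in isw2 rpd3, above wild type at 3.53, but its changes of 1.42 (SE 0.37) and 1.49 (SE 0.37) log2 units had limma adjusted p of 0.156 and 0.0698. In isw2, 0 of the 115 passed, against 0.016% of all genes, and 3 had an unadjusted p under 0.05 (2.61%, against 1.31%). HUG1 stood at 113 FPKM there against 20.3 in wild type, a fitted change of 2.42 (SE 0.31) with a limma adjusted p of 0.0887. The difference between loss of Isw2 with and without Rpd3 passed in 0 of the 115 and 0 of all genes, with 3 of the 115 at an unadjusted p under 0.05 (2.61%, against 1.71%). This difference also uses the prototrophic isw2 rpd3 strain, so strain background enters it.

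Loss of Ume6 and the fusion in other backgrounds moved 0 of the 115 past the threshold. In ume6 against wild type 0 passed, against 2.13% of all genes, with 18 at an unadjusted p under 0.05 (15.7%, against 19.3%), and 83 of the 115 were below 0 with a median of -0.16, against 0.04 over all genes. The workbook columns of ume6, ume6 with the fusion and wild type with the fusion entered both these fits and the choice of the genes, which had to be low there, so the shares are conditioned on it. HAP5 had the highest fitted change there, 1.28 (SE 0.28), with a limma adjusted p of 0.0561. The fusion in wild type passed in 0, against 0.016% of all genes, with 10 at an unadjusted p under 0.05 (8.7%, against 8.6%). The fusion in ume6 passed in 0, against 0.224%, with 4 at an unadjusted p under 0.05 (3.48%, against 9.36%). The inactive fusion in ume6 passed in 0, against 0.0481%, with 6 at an unadjusted p under 0.05 (5.22%, against 7.35%).

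**Figure D5:**
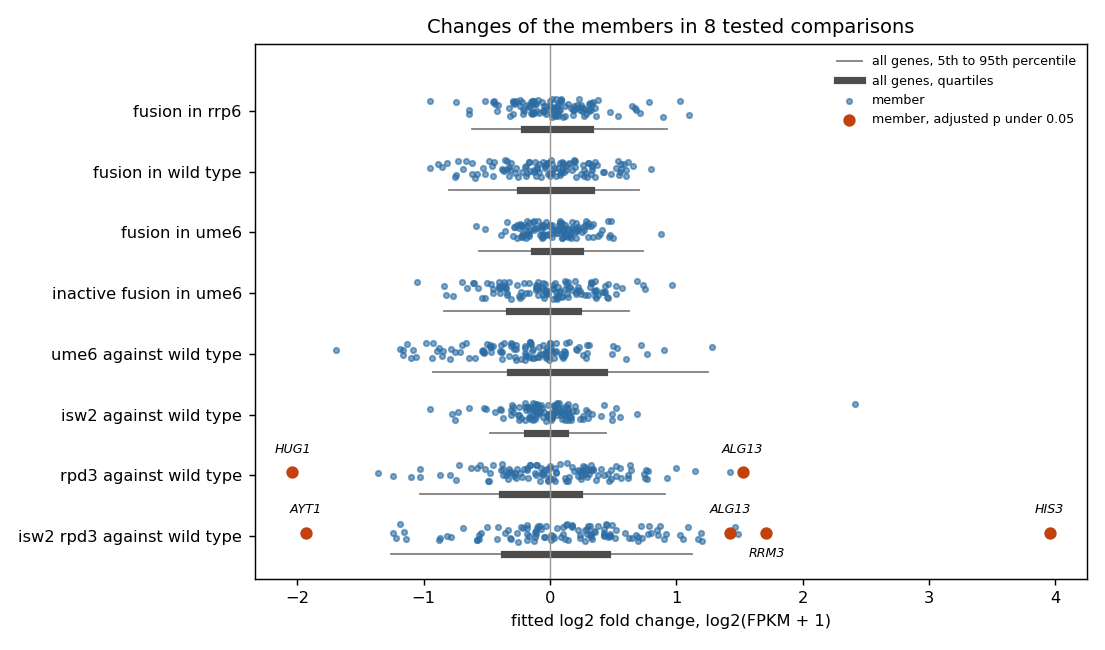
Fitted log2 fold changes of the 115 genes, on the log2(FPKM + 1) scale, in the 8 tested comparisons. Blue points are single genes, red points those with a limma adjusted p under 0.05, and the bars below them give the quartiles and the 5th to 95th percentiles of all 6241 genes; the only red points are HUG1 and ALG13 in rpd3 and HIS3, RRM3, ALG13 and AYT1 in isw2 rpd3.

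The pathways around these genes were described from lists. The set held 115 of the 6313 genes with a value in all 7 workbook columns. At that share a short list holds few genes of the set, so nothing is read from these counts. Of 31 autophagy genes in the tables ATG14 was the only one in the set, and the median of the list was 0.40 log2 units above wild type in rrp6 but -0.18 against the 3 workbook columns. VPS30, VPS34 and VPS15 encode the partners of Atg14. VPS34 was at 17.5 to 25.6 FPKM in rrp6 against 18.4 in wild type, VPS15 at 10.6 to 13.4 against 10.6, and VPS30 at 7.22 to 17.2 against 5.56. Of 7 genes of mitochondrial fatty acid synthesis OAR1 and HTD2 were in the set. The list median was 0.58 against wild type and 0.14 against the 3 workbook columns. Of 4 genes of lipoic acid attachment 0 were in the set, with medians of 0.21 against wild type and -0.06 against the 3 columns. Of the 4 HAP subunits HAP5 alone was in the set, and HAP4, the activating subunit, was at 40.3 to 64.4 in rrp6 against 82.2 in wild type. The median of the 4 was 0.22 against wild type but -0.08 against the 3 workbook columns.

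Genes of nuclear RNA decay differed among themselves. Their counts in the set likewise stand beside 115 of 6313 genes, and nothing is read from them. Of 13 nuclear exosome genes, RRP6 included, 0 were in the set. Their median was -0.35 against wild type but 0.27 against the 3 workbook columns. Of 5 TRAMP genes only TRF5 was in the set, with medians of -0.20 against wild type and 0.58 against the 3 columns. NRD1, left out of the set by the rule, was at 151 to 239 FPKM in rrp6 against 64.7 in wild type. NAB3 was at 52.6 to 108 in rrp6 against 32.4 in wild type. Other columns of NAB3 lay within that rrp6 range, with 62.0 in ume6 of the workbook and 70.6 in ume6 with the fusion of the abundance table. SEN1 was at 27.5 to 45.9 in rrp6 against 40.2 in wild type. Of 6 matched genes reported to depend on Rrp6 0 were in the set. NRD1 and IMD2 are among the 6, and the rule leaves both out by name. The median of the 6 was -0.40 against wild type and 0.19 against the 3 workbook columns. The median of the 3 Nrd1, Nab3 and Sen1 genes was 1.12 against wild type and 0.69 against the 3 columns. Of the genes on these 8 lists that were fitted, 3 passed in any tested comparison, all in isw2 rpd3. There 3.8% of all genes passed. The calls were 2 of 31 autophagy genes and 1 of 6 genes reported to depend on Rrp6, too few to read anything from. ATG26 rose by 1.47 (SE 0.30) log2 units and ATG2 by 1.26 (SE 0.28), with limma adjusted p of 0.037 and 0.0498, and IMD2 changed by -2.39 (SE 0.39), with a limma adjusted p of 0.0192. Of 15 genes of the cleavage and polyadenylation factor MPE1, SSU72 and PTI1 were in the set. The list median was -0.01 against wild type and 0.20 against the 3 workbook columns. Of 5 genes of cleavage factor I only PCF11 was in the set, with medians of 0.03 and 0.42.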

How the data were processed

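RNA was sequenced from 17 labelled libraries in 10 groups, deposited as 15 columns. The authors deposited 8 columns of log2 abundance, whose unit is not named and which were read as FPKM because they sum to nearly the same as the rest, and 7 workbook sheets of log2 FPKM. The ume6 sheet is headed as log2 per the file headers, but its spread was 0.31 of that of the other deposited sheets, close to the 0.30 of log10 of 2. It was therefore read as log10 FPKM, and as such its FPKM summed to 938173. CASAVA, TopHat2, SAMtools, Cuffdiff and Cufflinks 2.2.1 appear in the submitters' processing notes without roles; for genome build, annotation and use of strand in counting: not given in the sources used here. Wild type (2 labelled libraries) and isw2 (2 labelled libraries) have 1 column each. In wild type only 15.7% of values between 100 and 1000 FPKM, multiplied by 1, had the digits of a single column (tolerance 0.01), against 30.8% when multiplied by 2 and 93.3% when multiplied by 6. The column was treated as the authors' mean, but these digits are not those of a mean of only the 2 labelled libraries, and what entered it is not given in the sources.

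Changes were fitted with limma 3.58.1 in R 4.3.3 on log2(FPKM + 1) over 6241 genes with a value in all 15 columns and at least 1 FPKM in 2 of them, with 10 groups, a term for the table, a trend and 4 residual degrees of freedom. Benjamini-Hochberg adjusted p-values under 0.05 were called. A fold change on this scale understates the change of genes with low values. The design had been written for 1 library per column. The wild type column, treated as the authors' mean, nevertheless entered the fit as 1 ordinary column. The script was tested on simulated data. Other steps used Python 3.11.15, pandas 2.3.3, numpy 2.4.6 and matplotlib 3.10.9. Neighbours and promoters came from the RefSeq annotation of R64.

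The genes and lists were chosen with earlier results of these data known. Named with values are ATG14, OAR1 and HAP5, the 25 genes with the largest gap, genes called in a comparison, the 3 genes on each side of the limit and the lists these genes belong to; the roles, and other genes named by role, margin or position, were chosen after their values were seen. Alternatives were the pseudocount, the filter, quantile normalization, the table term, a replicate block, the limit of the rule and each column left out.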

Additional observations from a re-analysis of the deposited data

How the results depend on the processing

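Over the alternatives run for the counts, 142 of 164 stayed within 1.5 times the reported count and 22 moved; of 108 values of single called genes, 77 kept their call, 31 lost it and 0 reversed. The count called in rpd3 went from 2 to 0 with a pseudocount of 5, quantile normalization or no term for the table, and lay between 0 and 2 with 1 column left out. The count in isw2 rpd3 went from 4 to 1 (HIS3) under quantile normalization and lay between 2 and 4 with 1 column left out. The count in isw2 went from 0 to 1 (HUG1) with a pseudocount of 5, and that in ume6 from 0 to 1 (ATF2) without the term for the table. With the replicate block the rpd3 count was 1 (HUG1), and ALG13 had limma adjusted p of 0.0875 in rpd3 and 0.0501 in isw2 rpd3. Same-numbered rrp6 columns with and without the fusion deviated oppositely (r = -0.337 over 6241 genes), so the numbers do not pair them; with the crossed block, chosen after seeing the data, the ume6 count was 2 (ATF2 and HAP5). The rule gave 238 genes with a limit of 0.25, 22 with a limit of 1 and 122 to 193 with 1 column left out, and 193 was reached without wild type with the fusion in the workbook. The count above all 8 abundance columns was 23 with a margin of 0.5 and 56 to 62 with 1 column left out. No share of all genes is given beside these counts, so they show only how the count moved. The causes were not tested. Depth is unknown, and each group has 1 or 2 columns.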
